A study of Mus musculus with 2 samples.

Results

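The genes described here encode the proteins of the cytosolic ribosome. They were taken by symbol alone: symbols that begin with Rpl or Rps followed by a digit, together with Rplp0, Rplp1, Rplp2 and Rpsa, leaving out symbols with "-ps" and the Rps6k kinases. This gave 86 of 32285 features, 52 with large subunit symbols and 34 with small subunit symbols, and no measured value entered the choice. Rps19bp1, which encodes a protein that binds Rps19, and Rpl7l1, which encodes a factor of large subunit assembly, match the symbols without being ribosomal proteins and are counted as members.

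The cytosolic ribosome joins a small subunit, which reads the mRNA, to a large subunit, which makes the peptide bond. Its proteins are needed in near-equal numbers, and most of their mRNAs start with a C followed by an unbroken run of pyrimidines, a sequence through which their translation is controlled together. Their mRNAs are among the most abundant in growing cells, and lymphocytes are known for a high share of them. Neutrophils leave the bone marrow as short-lived, non-dividing cells with condensed nuclei and few ribosomes.

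Immune cells were taken from the hearts of male wild-type C57BL/6J mice aged 8 weeks by magnetic sorting for CD45, the pan-leukocyte surface protein. All animals had the left anterior descending coronary artery occluded for 60 min and reperfused for 24 h, so no uninjured heart was included. The sham group had sham surgery and the splenectomy group had the spleen removed, on a day the labels do not state. Each group is 1 library of 10x Genomics 3' single-cell RNA-seq, and the labels do not say how many animals each one pooled, so no test between the groups was possible and intervals cover counting error only.

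After filtering, 5838 sham and 4805 splenectomy cells were kept, with medians of 4988 and 7219 UMIs (unique molecular identifiers, each standing for 1 captured mRNA molecule). Ptprc, which encodes CD45, was found in 79.7% and 79.4% of them. Each cell was placed in a class by the UMIs of fixed marker genes, none of them a member. There were 2179 and 1512 neutrophil-like cells, 727 and 754 monocyte-like, 705 and 572 macrophage-like, and 328 and 252 cells that scored for both of the latter. Smaller classes held between 22 and 98 cells per library where shown, and 24.7% and 26.7% of cells stayed without a class. Classes cut from a score have soft edges: 758 and 635 cells lay within 0.05 of the margin of 0.15 that a class needed, among them 39 and 34 cells with neutrophil as the best score. In neutrophil-like cells the 10 neutrophil markers had a median of 325 and 481 UMIs per cell, against 2 and 3 for the 14 macrophage markers and 3 and 4 for the 10 monocyte markers. The libraries shared 9 cell barcodes and no identical cell.

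The start of a ribosomal protein mRNA is shown for 10 members on which the results turn: some of those least and most reduced in neutrophil-like cells, and paralogs that differ between classes. Each line runs 5′ to 3′ from 10 bases before the annotated RefSeq start (GRCm38.p6) to 20 after it, and capitals mark the longest C followed by at least 4 C or T letters.
Rps9: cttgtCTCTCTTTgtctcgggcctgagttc
Rps27: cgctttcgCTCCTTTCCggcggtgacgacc
Rps27rt: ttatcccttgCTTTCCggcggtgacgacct
Rps27l: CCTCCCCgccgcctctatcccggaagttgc
Rps18: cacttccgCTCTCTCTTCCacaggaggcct
Rpl10a: gCCCCCCCagcggccgcaaactgcagcgcc
Rps4x: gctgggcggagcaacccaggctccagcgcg
Rpl36a: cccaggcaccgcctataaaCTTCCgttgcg
Rpl36al: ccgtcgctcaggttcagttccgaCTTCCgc
Rpl3l: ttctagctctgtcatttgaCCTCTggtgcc
In this order the windows lie at chr7:3704031-3704060 (+), chr3:90213629-90213658 (-), chr9:114982720-114982749 (-), chr9:66946076-66946105 (+), chr17:33955646-33955675 (-), chr17:28328461-28328490 (+), chrX:102189372-102189401 (-), chrX:134585644-134585673 (+), chr12:69184048-69184077 (-) and chr17:24727816-24727845 (+). Rps27l and Rpl10a have a second annotated start without such a run, and the second start of Rpl3l also lacks one.

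RefSeq windows were found for 66 members, some with several starts. The pyrimidine run was present in 47 of 78 member windows (60.3%), against 35.8% of all 32851 windows. Within 250 bases before to 50 after the start, CCGGAAG, a core of ETS factor sites, was present on either strand in 34.6% of member windows and 8.86% of all windows. GCCATNTT, a core of YY1 sites, was present in 21.8% and 6.05%. A match describes letters and is not evidence of a site.

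Over all kept cells the members made up 14.6% of sham and 14.9% of splenectomy UMIs. Of the 86 members, 80 were above 100 CPM (the UMIs of a gene for every 1000000 UMIs summed over the cells of a group). Rps29, a zinc-binding protein of the small subunit head, was highest at 4395 CPM, followed by the very short Rpl41 at 3631 and Rpl13 at 3496. Rpl10l, a testis paralog of Rpl10, had 0 UMIs in both libraries, which allows a level of up to 0.0609 and 0.0670 CPM. Rpl39l, a paralog of the exit tunnel protein Rpl39, had 45 and 33 UMIs in all. Of the 17 found in sham T cell-like cells, 15 were in 1 cell.

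The share of UMIs that came from members differed widely between classes, from lymphocytes at the top to neutrophils at the bottom. T cell-like cells were highest, at 32.3% in the sham and 36.3% in the splenectomy library, beside B cell-like cells at 31.9% and 31.4%. Natural killer cell-like cells followed at 26.3% and 25.2%, and conventional dendritic cell-like cells at 21.4% and 22.0%. Monocyte-like cells had 16.4% and 16.0%, macrophage-like cells 15.7% and 15.9%, nonclassical monocyte-like cells 16.4% and 16.8%, and cells between monocyte and macrophage 16.7% and 16.1%. Neutrophil-like cells stood far below at 2.73% (exact binomial 95% interval 2.72 to 2.74) and 2.39% (2.37 to 2.40). Endothelial cell-like cells had 13.5% and 15.7%. Plasmacytoid dendritic cell-like cells, with 18.6% and 22.8%, ranked below conventional dendritic cell-like cells in the sham and above them in the splenectomy library. With 1 library a group the order of classes this close has no replicate check, which holds for all monocyte and macrophage classes, whose shares ran from 15.7% to 16.8%.

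Single cells showed the same separation. The median neutrophil-like cell held 89 member UMIs in the sham and 84 in the splenectomy library, beside 3258 and 3712 UMIs of other genes. In all other named cells together the medians were 2080 and 2039 member UMIs beside 10884 and 10727 others. Only 3 of 2179 and 3 of 1512 neutrophil-like cells reached a share of 10%, while 8.07% and 7.47% of the other named cells stayed below it. At equal depth the difference was also seen in how many members were found: after each cell was thinned to 2000 UMIs, the median neutrophil-like cell showed 33 and 30 of the 86 members, against 74 to 78 in the other classes with at least 50 cells in both libraries. The thinning left out 183 and 85 neutrophil-like cells that were shallower.

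Neutrophil-like cells were then compared with all other named cells within each library. The member share was 2.73% against 16.9% in the sham library, a ratio of 0.161 (95% interval 0.161 to 0.162), or 6.20-fold lower. In the splenectomy library it was 2.39% against 16.9%, a ratio of 0.141 (0.140 to 0.142), or 7.10-fold lower. The medians of the large subunit genes and of the small subunit genes were close, at a log2 ratio of -2.74 and -2.72 in the sham and -2.92 and -2.98 in the splenectomy library. Among cells of 2000 to 8000 UMIs the ratios were 0.137 and 0.110, but this window also changes the mix of the other cells. Most macrophage-like and monocyte-like cells were deeper than the window. In sham cells of 4000 to 8000 UMIs the share was 33.9% in B cell-like, 14.2% in macrophage-like and 12.3% in monocyte-like cells. In neutrophil-like cells of that range it was 2.47%.

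At a threshold of 2-fold and at least 50 UMIs in the higher group, 80 of the 84 members that could be compared were lower in neutrophil-like cells in the sham library and 81 of 84 in the splenectomy library. Over all features 51.7% and 53.2% were lower by the same rule. One member was higher in each library, where 14.2% and 13.1% of all features were. The members that could not be compared, with under 50 UMIs, were Rpl10l and Rpl39l. The median log2 ratio of the members was -2.73 and -2.93, and that of all features tested was -1.10 and -1.17, so that relative to all features the members stood at -1.63 and -1.76. In both libraries 33 members were at least 8-fold lower. A further 43 were at least 4-fold lower in both without reaching 8-fold in both. The share of all features at these limits was not computed. Across the 83 members with at least 50 UMIs in all 4 groups, the log2 ratios of the libraries had the same order (Spearman's rho 0.983, a description over genes measured in cells of the same kinds), and against the level in other cells they had rho 0.0667 and 0.0826 without Rpl3l.

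**Figure D1:**
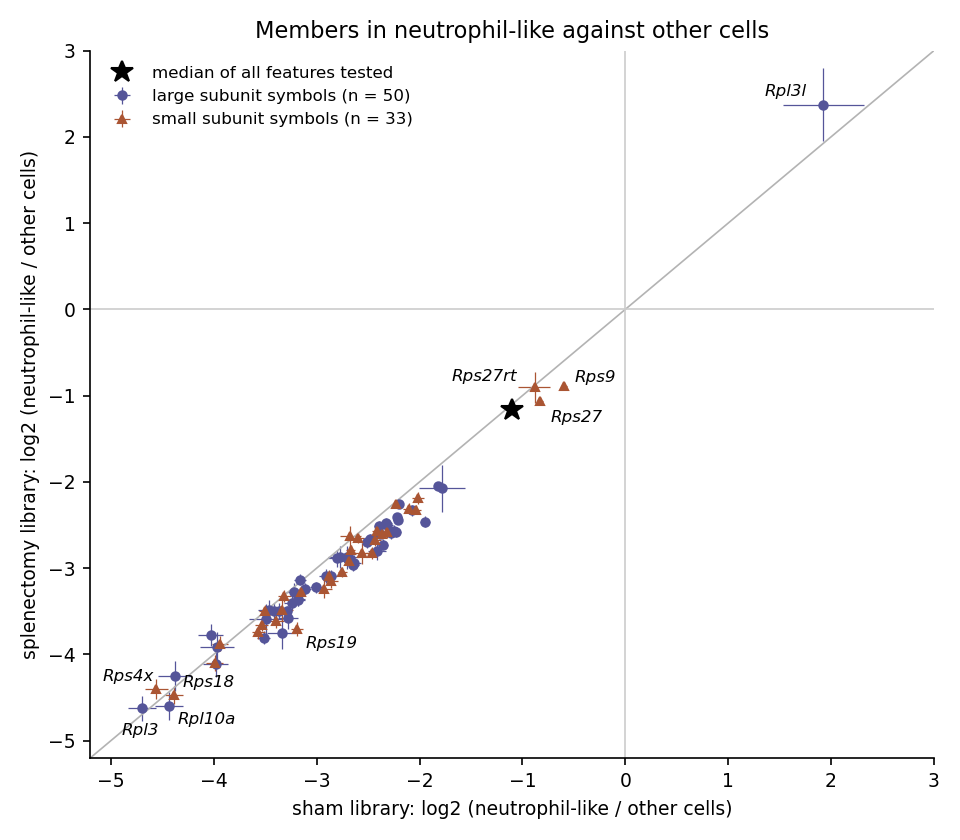
Log2 ratio of summed CPM in neutrophil-like over other named cells for the 83 members with at least 50 UMIs in all 4 groups, sham library on the x axis and splenectomy library on the y axis, with exact 95% counting intervals. The star is the median of all features tested, at -1.10 and -1.17. All but 4 members lie below it in each library, and Rpl3l alone lies above 0.

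The members most reduced in neutrophil-like cells sit in both subunits. Rpl3 (chr15:80077791-80091868), which lies near the peptidyl transferase centre, had 58.7 CPM in sham neutrophil-like cells and 1521 CPM in other cells. The values in the splenectomy library were 64.6 and 1596 CPM, so that its log2 ratio was -4.69 (-4.83 to -4.56) and -4.63 (-4.77 to -4.48). It was found in 10.3% and 11.1% of thinned neutrophil-like cells and in 89.3% or more of the monocyte-like and macrophage-like cells of the sham library. Rpl10a, a protein of the L1 stalk, followed with log2 ratios of -4.44 and -4.60. The X-linked Rps4x had -4.56 and -4.40, Rps18 of the small subunit head had -4.38 and -4.47, and Rpl36a had -4.38 and -4.25. Of the starts shown above, that of Rps18 has a long pyrimidine run and that of Rps4x none. All 5 share 90-base words at their transcript ends with other annotated genes, Rpl36a over its whole end and Rpl3 over 75.2% of it. With other features of these files, Rpl36a shares 61.7% and Rps18 38.6% of such words, and Rpl3, Rpl10a and Rps4x share none.

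The members least reduced were also few. Rps9, a small subunit protein at the mRNA entry channel (chr7:3703993-3706897), had 1530 and 1329 CPM in neutrophil-like cells against 2312 and 2454 CPM in other cells, a log2 ratio of -0.60 (-0.62 to -0.57) and -0.88 (-0.92 to -0.85). Rps27, a zinc-binding small subunit protein (chr3:90212522-90213651), had 1382 and 1203 CPM against 2448 and 2518 CPM, a log2 ratio of -0.82 and -1.06. Relative to the median of all features, Rps9 stood at 0.50 and 0.28 and Rps27 at 0.27 and 0.10 on the log2 scale, so their direction depends on whether totals or the median feature set the scale. In neutrophil-like cells these 2 genes made up 10.7% and 10.6% of all member UMIs, against 2.81% and 2.94% in the other cells. Rps27rt, a near copy of Rps27 (chr9:114982366-114982739), had log2 ratios of -0.88 and -0.90. Without these 3 genes the member share was 6.75-fold and 7.72-fold lower in neutrophil-like cells.

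Rps27rt shares 89.8% of the 90-base words in the last 400 bases of its transcripts with other genes, so its UMIs may belong to Rps27, and it had between 2.68 and 4.55 UMIs for every 100 of Rps27 in every class and library shown. Such sharing is common in this family: 71 of the 86 members share at least 1 such word with another annotated gene, and 26 share more than 50% of them. With another feature of these files 12 members share a word. The median log2 ratio was -3.02 and -3.24 in those 26 members, and -2.54 and -2.73 in the 12 with no shared word that could be compared. Members with the pyrimidine run anywhere from 10 bases before to 20 after an annotated start had medians of -2.97 and -3.19 (n = 42). Members without it had -2.51 and -2.70 (n = 21). Such a run can lie before the start, as in Rps27l and Rpl10a above. Rpl17 and Rps14, on chromosome 18, were left out of this split.

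Rpl3l, the paralog of Rpl3 known from heart and skeletal muscle (chr17:24727820-24736143, with no overlapping annotated gene and no shared word), was the member higher in neutrophil-like cells. It had 109 UMIs (13.9 CPM) in 103 of 2179 sham cells and 105 UMIs (17.0 CPM) in 90 of 1512 splenectomy cells. Other named cells together had 3.65 and 3.28 CPM, which gives log2 ratios of 1.93 (1.53 to 2.32) and 2.38 (1.95 to 2.80). Nonclassical monocyte-like cells were higher still, with 49.2 CPM (18 UMIs, interval 29.2 to 77.8) and 34.6 CPM (11 UMIs, 17.2 to 61.8). Monocyte-like cells had 6.20 and 4.91 CPM, macrophage-like cells 0.923 and 1.18 CPM, and B cell-like, T cell-like and natural killer cell-like cells had 0 UMIs, which allows up to 8.63, 9.16 and 8.94 CPM in the sham library. The few cells with cardiomyocyte markers had 6 and 7 UMIs (24.7 and 49.2 CPM). The 6 cardiomyocyte markers made up 0.00141% and 0.00161% of the UMIs of neutrophil-like cells, and 0.00322% and 0.00295% of those of macrophage-like cells. Whether Rpl3l UMIs in neutrophil-like cells came from cardiomyocyte RNA was not tested. At 2000 UMIs a cell, 2.61% and 3.01% of neutrophil-like cells had a Rpl3l UMI and 0.149% and 0.180% of macrophage-like cells did.

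RNA released by broken cells adds UMIs to every droplet. Markers of other classes are set beside the members here, but the same markers placed the cells in classes. Their low level in neutrophil-like cells is thus partly fixed by the class rule and is no independent measure of such RNA. For the 14 macrophage markers the median log2 ratio of neutrophil-like over other cells was -5.39 and -5.31, with a range of -6.08 to -2.36 in the sham library. Their summed UMIs gave -3.66 and -3.42. The medians were -4.92 and -4.33 for 4 markers of conventional dendritic cells and -4.88 and -4.52 for 3 of B cells. The B cell markers were uneven: the highest stood at 0.02 and -0.92, and their summed UMIs gave -1.08 and -2.04. The lowest member, Rpl3 at -4.69 and -4.63, lay within the range of the macrophage and the conventional dendritic cell markers. How much of the member UMIs in neutrophil-like cells was free RNA was not tested.

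Members with set roles followed the family. Of the P stalk, on which the GTPase factors act, Rplp0 had log2 ratios of -3.01 and -3.22, Rplp1 -2.71 and -2.89, and Rplp2 -2.32 and -2.48, while Rpl12 at the base of the stalk was lower at -3.98 and -4.12. The 5S RNA particle proteins Rpl5 and Rpl11, which also bind the p53 regulator Mdm2, had -3.34 and -3.75, and -3.18 and -3.37. In the small subunit, the laminin receptor homolog Rpsa had -3.99 and -4.10, Rps2 -3.57 and -3.74, the kinase target Rps6 -2.93 and -3.24, and Rps3 -2.41 and -2.57. At the exit tunnel, Rpl4 had -3.97 and -3.91, Rpl39 -3.16 and -3.13, and Rpl17 -1.95 and -2.46. Rps27a, made as a fusion to ubiquitin, had -2.67 and -2.79. Genes whose products lie beside each other, such as Rpl12 and Rplp2, thus differed by more than counting error.

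Genes of the same pathway outside the symbol rule were also lower. Rack1, a small subunit scaffold, had log2 ratios of -3.48 and -3.94, whereas Fau, which encodes small subunit protein S30, had -0.59 and -0.92 and thus lay with Rps9 and Rps27. Of 20 translation factors and other genes with the same kind of mRNA start, 17 and 18 were at least 2-fold lower, with medians of -2.31 and -2.53. Npm1, a nucleolar chaperone, had -4.55 and -4.76, while Tpt1 had -0.86 and -1.05 and the poly(A)-binding protein gene Pabpc1 -0.80 and -0.94. Of 35 ribosome biogenesis genes 34 and 33 were at least 2-fold lower, with medians of -3.02 and -3.20. Ubtf, which encodes an activator of ribosomal RNA transcription, was an exception in both libraries, at 0.22 and -0.18, and Polr1a, a subunit of RNA polymerase I, in the splenectomy library at -0.91. The mitochondrial ribosome had 71 and 72 of 78 genes at least 2-fold lower, with medians of -2.63 and -2.60. All 13 mitochondrially encoded genes were at least 2-fold lower in both libraries. Of the 7 S6 kinase genes that could be compared, 2 were at least 2-fold higher in each library and 2 and 3 as much lower. Rps6ka2, a p90 kinase, stood at 3.22 and 3.93. By the same rule 51.7% and 53.2% of all features were lower, and 14.2% and 13.1% higher.

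The order of members by level was nearly the same among monocyte-like and macrophage-like cells (rho 0.979 and 0.961 over 83 members) and between B cell-like and T cell-like cells (0.974 and 0.966). Macrophage-like and B cell-like cells had rho 0.879 and 0.872, and neutrophil-like and macrophage-like cells 0.710 and 0.720. These are descriptions over genes within single libraries. When each class was compared with all other named cells and divided by the median member, 81 of 83 members in macrophage-like cells and all 83 in conventional dendritic cell-like cells stayed within a log2 of 0.5 in both libraries. In B cell-like cells 63 of 81 did, in T cell-like cells 59 of 81, and in neutrophil-like cells 42 of 83. The share of all features within this limit was not computed.

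The widest departures in lymphocytes were in paralogs. Rps27l, a paralog of Rps27 that is induced by p53 (chr9:66946086-66949516), had 184 and 189 CPM in B cell-like and 177 and 154 CPM in T cell-like cells. In macrophage-like cells it had 734 and 643 CPM, in conventional dendritic cell-like cells 1032 and 759 CPM, and in monocyte-like cells 555 and 525 CPM. Rps27 ran the other way, with 9302 and 9114 CPM in B cell-like, 8930 and 9639 CPM in T cell-like, and 1914 and 1897 CPM in macrophage-like cells. Per 100 UMIs of Rps27 there were thus 1.98 and 2.07 of Rps27l in B cell-like cells, 1.98 and 1.60 in T cell-like cells, and 38.3 and 33.9 in macrophage-like cells. Neutrophil-like cells, at 7.45 and 7.74, and nonclassical monocyte-like cells, at 5.82 and 5.78, lay between. Of the words at the transcript ends of Rps27l, 2.44% occur in other annotated genes, so few of its UMIs can belong to a copy. This measure counts exact matches of whole words and does not give how many letters Rps27l and Rps27 share.

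After division by the median member, Rps27l was the lowest member in B cell-like cells (log2 -2.69 and -2.47) and in T cell-like cells (-2.85 and -3.04). Rpl36al, an autosomal paralog of the X-linked Rpl36a, came next at -1.03 and -1.26, and -1.13 and -1.43. It had 0.514 and 0.453 UMIs per UMI of Rpl36a in B cell-like cells, against 1.85 and 1.96 in monocyte-like and 1.70 and 1.89 in neutrophil-like cells. Rpl36al shares 73.5% and Rpl36a all of its end words with other annotated genes (0 and 61.7% with features of these files), so this ratio is uncertain. Rps27 was the highest in B cell-like cells, at 0.98 in both libraries, and the lowest in macrophage-like cells at -0.57 and -0.59. Rpl22l1, the paralog of the large subunit protein gene Rpl22, ranged from 13.8 to 55.4 UMIs per 100 of Rpl22 and was above 50 in natural killer cell-like cells of both libraries.

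**Figure D2:**
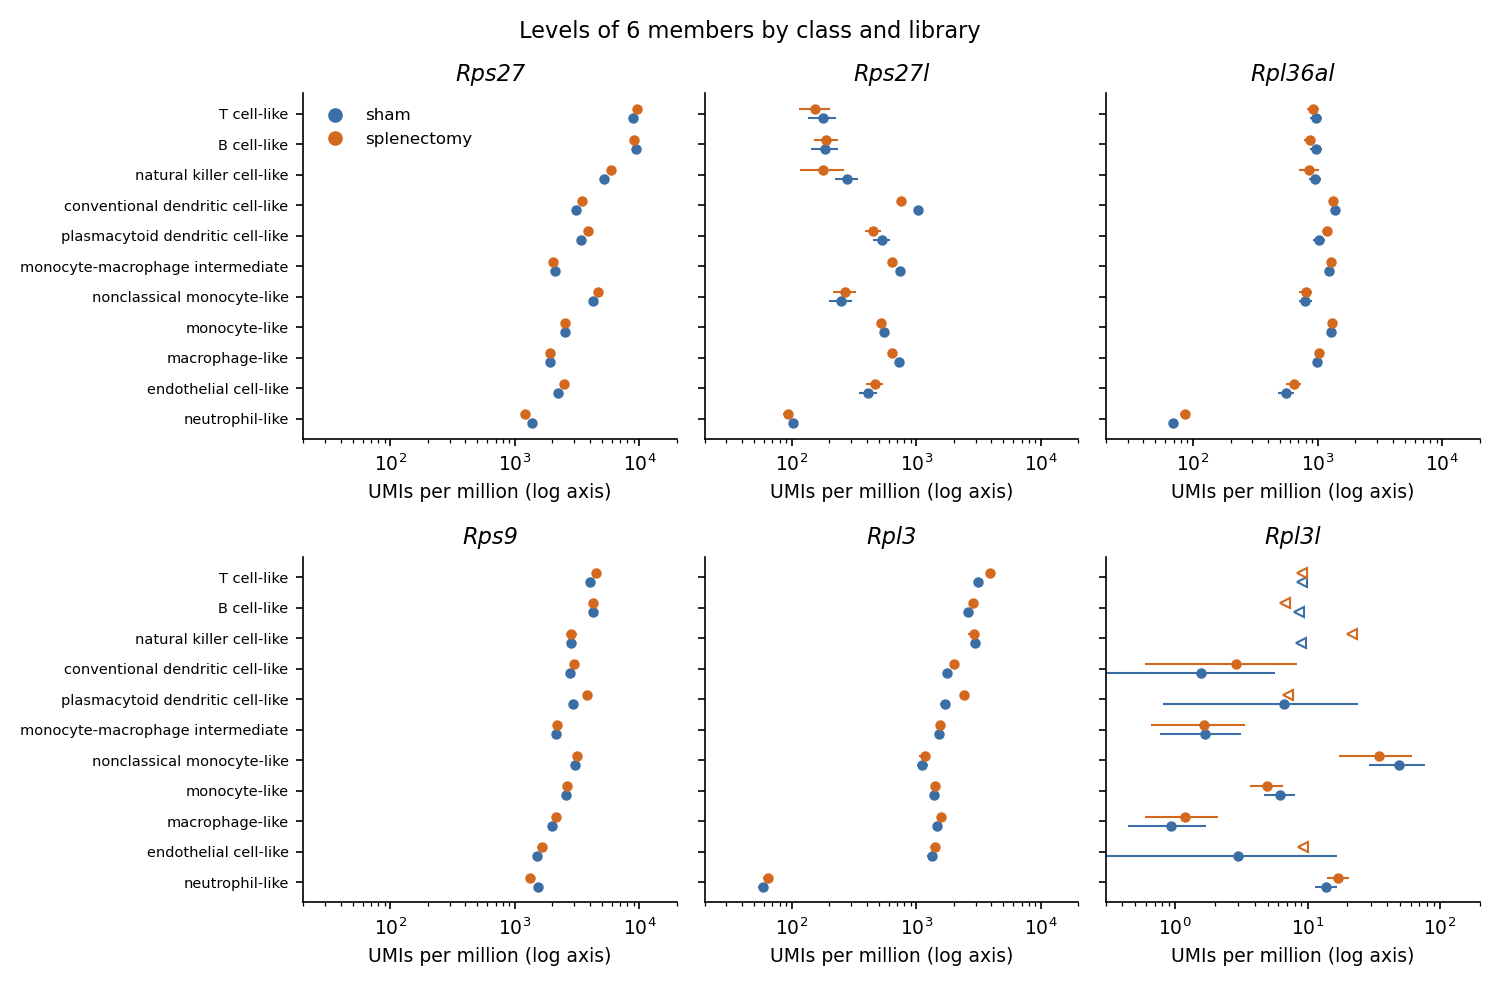
CPM (log axis) of 6 members in 11 classes, with sham in blue and splenectomy in orange and bars for exact Poisson 95% intervals. Open triangles give the level that a count of 0 allows. Rps27l and Rps27 take opposite orders across lymphocyte and macrophage classes, and Rpl3 falls from 1477 CPM in sham macrophage-like to 58.7 CPM in neutrophil-like cells.

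The share also varied among neutrophil-like cells. They were split into 4 equal groups by the UMIs of genes known from young neutrophils (Retnlg, Cd177, Ngp, Camp, Ltf and Lcn2). The group with the most such UMIs had 2.37% and 1.96%, and the group with the fewest 3.04% and 2.80%. S100a8 and S100a9, 2 very abundant granulocyte transcripts, took 14.8% and 20.01% of UMIs in the first of these and 6.43% and 7.62% in the other. With both left out of the total, the member share was 2.78% and 2.45% against 3.25% and 3.03%. Split by activation genes (Csf1, Il23a, Ccl3 and Ccl4), the groups with the most and the fewest UMIs had 2.66% and 2.73% in the sham and 2.44% and 2.37% in the splenectomy library. With S100a8 and S100a9 left out of the total, these shares were 2.89% and 3.13% in the sham and 2.69% and 2.87% in the splenectomy library. Among monocytes, macrophages and the cells between them, 44 and 58 cells had 2 or more UMIs of the division genes Mki67 and Top2a and a share of 16.5% and 15.7%, and cells with none had 16.2% and 16.0%. Cells with division genes were deeper, with medians of 20457 and 19392.5 UMIs against 13828 and 13702. Among cells of at least 16000 UMIs the shares were 16.8% and 15.9% with division genes (25 and 39 cells) and 16.7% in both libraries without.

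Between the libraries, neutrophil-like cells had a lower member share after splenectomy, 2.39% against 2.73%, a ratio of 0.875 (0.869 to 0.880). The ratio was 0.979 (0.977 to 0.981) in monocyte-like, 1.01 (1.01 to 1.01) in macrophage-like, and 0.962 (0.959 to 0.965) in the cells between them. It was 0.984 in B cell-like, 1.12 in T cell-like, 1.03 in conventional dendritic cell-like, 1.16 in endothelial cell-like and 1.22 in plasmacytoid dendritic cell-like cells, the last with 25 and 35 cells. The T cell-like ratio is one of summed UMIs, and the medians over single T cell-like cells were 35.6% and 35.7%. In all named cells other than neutrophils together it was 1.001. The intervals do not include differences between animals, so whether any of these departures from 1 belongs to the surgery could not be tested. The monocyte-like ratio turned to 1.088 among cells of 2000 to 8000 UMIs, and the macrophage-like ratio to 0.997 with clusters in place of scores.

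In neutrophil-like cells 74 of 83 members were lower in the splenectomy library, with a median log2 ratio of -0.17. Of all 6022 features tested there, 3683 were lower, with a median of -0.08. For 55 members the counting interval lay below 0, and for 2, Rps4x and Rpl36al, it lay above. Intervals were not counted over all features, and abundant genes such as the members have narrow ones. At a threshold of 1.5-fold, 1 of the 83 was called lower and 0 higher, against 7.07% and 3.35% of all features. That member was Rps19, a small subunit protein required for maturation of its rRNA, with 316 and 209 CPM and a log2 ratio of -0.60 (-0.70 to -0.50). It fell below the threshold when doublets were not removed or when the median feature set the scale. In the 3 larger neutrophil-like clusters its log2 ratio was -0.59, -0.75 and -0.55, and in the cluster led by interferon genes, with 86 UMIs in the splenectomy library, -0.18. Rpl17 followed at -0.49, Rps26 at -0.42, Rpl30 at -0.40 and Rpl5 at -0.36.

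**Figure D3:**
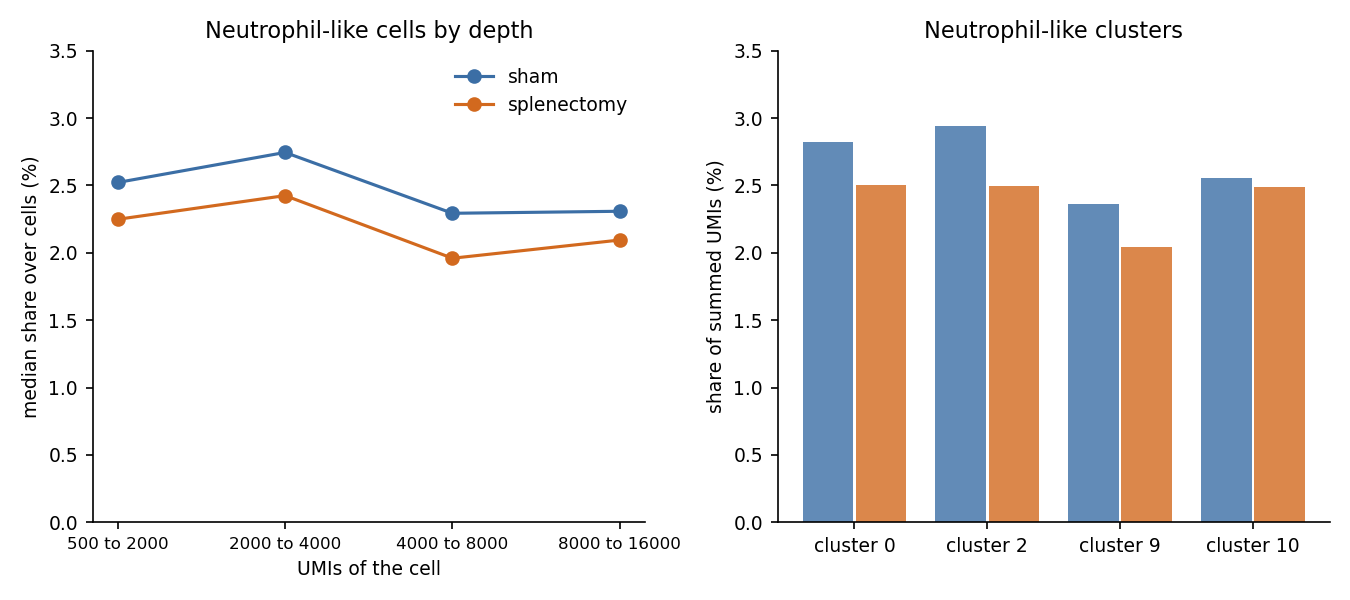
Left, the median over neutrophil-like cells of the share of UMIs from members (%) in 4 ranges of UMIs per cell. Right, the share of summed UMIs (%) in the 4 neutrophil-like clusters, led by Il23a and Csf1 (cluster 0), G0s2 and Nt5e (cluster 2), Retnlg (cluster 9) and Ifit genes (cluster 10). Sham (blue) lies above splenectomy (orange) in all 4 ranges and all 4 clusters.

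The mix of neutrophil-like clusters differed between libraries. The cluster led by Retnlg and Lcn2, which had the lowest share (2.36% and 2.04%), held 193 sham and 341 splenectomy cells, and the one led by Ifit genes held 348 and 84. Within clusters the ratio of splenectomy over sham was 0.885, 0.848, 0.865 and, for the Ifit cluster, 0.972, and their mean with equal weights was 0.891. With S100a8 and S100a9 left out of the total the overall ratio was 0.905. Without doublet removal it was 0.958. The part of cluster mix, of these 2 genes and of doublets in the difference was not tested. In neutrophil-like cells of 8000 to 16000 UMIs, 48 and 64 cells, the summed share went the other way, at 2.58% in the sham and 2.93% in the splenectomy library, while the medians over cells were 2.31% and 2.10%.

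In the 6 other classes with at least 50 cells in both libraries, the ones compared gene by gene, no member reached 1.5-fold. In monocyte-like cells this was 0 of 84, where 2.82% of all features were higher and 3.76% lower. In macrophage-like cells it was 0 of 83 (all features 2.54% and 2.57%), and in the cells between them 0 of 83 (2.53% and 4.17%). The counts were also 0 of 83 in conventional dendritic cell-like (3.74% and 5.13%), 0 of 81 in B cell-like (7.55% and 2.36%) and 0 of 81 in T cell-like cells (4.44% and 8.89%). Within 1.2-fold were 83 of 84 members in monocyte-like and 81 of 83 in macrophage-like cells. All features were not counted at this limit, and abundant genes such as the members vary less by counting error. The widest departures in macrophage-like cells were Rpl22l1, with 337 and 444 CPM and a log2 ratio of 0.40 (0.33 to 0.46), and Rps27l, with 734 and 643 CPM and -0.19 (-0.24 to -0.14). Rpl13a (0.27), Rps15 (0.25) and Rpl23a (0.23) were next above, and the same 3 genes with Rps25 and Rpl22l1 were the 5 highest in monocyte-like cells, at 0.12 to 0.18. In T cell-like cells 75 of 81 members were higher in the splenectomy library, with a median of 0.16 and 60 and 67 cells. Of all 855 features tested there, 412 were higher, with a median of -0.02, and the mitochondrially encoded genes, 12 of 12 higher, had a median of 0.28. The median of mitochondrially encoded genes was also higher after splenectomy in every other class compared. It was 0.34 in monocyte-like, 0.23 in macrophage-like and 0.31 in the cells between them. In conventional dendritic cell-like cells it was 0.26, in B cell-like 0.15 and in neutrophil-like cells 0.11.

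**Figure D4:**
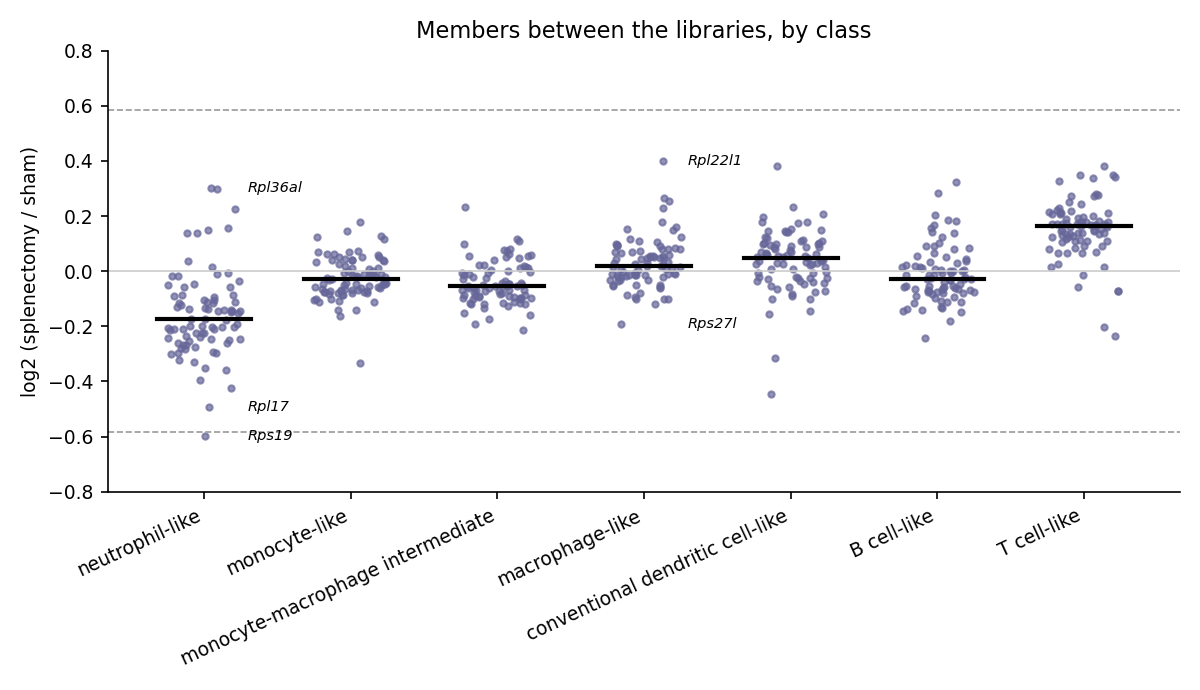
Log2 ratio of splenectomy over sham for each member with at least 50 UMIs in both libraries (dots), by class, with the median as a bar and dashed lines at 1.5-fold. Among the 7 classes plotted, only Rps19 in neutrophil-like cells lies beyond a dashed line, at -0.60.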

How the data were processed

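Counts of UMIs per gene and barcode were used as deposited by the authors; per the file headers they come from Cell Ranger 5.0.0, and per the submitters' processing notes from STAR and build mm10, with the annotation not given in the sources used here. The files held 6210 and 5087 barcodes with 53512625 and 48024013 UMIs. Cells under 200 genes or over 20% mitochondrial UMIs were left out (70 and 82), as were the highest Scrublet scores at 8 per 1000 cells for each 1000 cells (302 and 200).

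A cell took the class with the best mean marker score if at least 3 markers were found, the scaled score reached 0.5 and the lead was 0.15. Leiden clusters (scanpy 1.11.5) were made without the members. UMIs were summed by class and library and divided by all UMIs. Ratios carry exact 95% intervals for Poisson counts. A call needed 50 counts in the higher group and 2-fold (classes) or 1.5-fold (libraries), and the ratio code was tested on simulated data. Genes named in the text are the 10 highest members, the 5 at either end of each comparison, the 2 at either end of each class, and members set by role. Members, lists and markers were chosen with earlier results of these data known. Positions of genes (all 86 matched by identifier) follow GENCODE vM21, build mm10. Alternatives changed filters, doublets, depth, classes, denominators and scaling.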

Additional observations from a re-analysis of the deposited data

How the results depend on the processing

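No paired analysis was possible because each group holds 1 library. All alternatives kept the direction of the neutrophil-like against other ratio. In the order sham and splenectomy it was 0.178 and 0.170 without doublet removal, 0.137 and 0.110 in cells of 2000 to 8000 UMIs, 0.158 and 0.138 without mitochondrially encoded genes in the total, 0.206 and 0.185 without the 20 most abundant other genes, 0.158 and 0.136 as medians over cells, and 0.162 for sham with clusters in place of scores. Members at least 2-fold lower numbered 74 to 82 and 78 to 83 over the settings run.

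The splenectomy over sham ratios, in the order neutrophil-like, monocyte-like and macrophage-like, were 0.958, 0.989 and 1.008 without doublet removal, 0.849, 1.088 (reversed) and 1.116 in cells of 2000 to 8000 UMIs, and 0.859, 0.987 and 1.023 as medians over cells. With clusters the neutrophil-like ratio was 0.861 and the macrophage-like ratio turned to 0.997. Without mitochondrially encoded genes the monocyte-like and macrophage-like ratios were 0.983 and 1.017, and without the 20 genes the neutrophil-like and macrophage-like ratios were 0.897 and 1.016. Chosen after seeing the data, a total without S100a8 and S100a9 gave 0.905 and equal weights for clusters 0.891. The 1 member called in neutrophil-like cells became 0 without doublet removal and with the median feature as scale, and in cells of 2000 to 8000 UMIs 1 member was called in macrophage-like cells. The causes of these shifts were not tested.

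With 1 library a group, spread between animals is not known. Depth left too few UMIs to compare Rpl10l and Rpl39l and, within neutrophil-like cells, Rps19bp1.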
